A study of Mus musculus with 6 samples.

Results

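The replication-dependent histone genes were taken as every gene of the count table whose name begins with Hist1h, Hist2h, Hist3h or Hist4h, which gave 68 of 23366 genes. By name they fell into 6 genes of linker histone H1, 18 of H2A, 19 of H2B, 12 of H3 and 13 of H4. The libraries came from CD4+ effector T cells of FVB/N strain background, recovered from mesenteric lymph nodes of Rag-deficient host mice 6 weeks after T cells were transferred into them. Such hosts lack their own T and B lymphocytes but keep myeloid and dendritic cells. The cells were sorted on rhodamine 123 (Rh123), a dye that the transporter Mdr1 pumps out, into a low-dye fraction labelled Mdr1+ and a high-dye fraction labelled Mdr1-, with 3 libraries each. The Mdr1+ and Mdr1- labels thus name sorted fractions of the transferred cells. Both fractions shared the strain, host, tissue and time, and the labels name no drug treatment, age or sex. Whether a replicate is one mouse or a pool is not stated there, so the p-values describe the spread among these libraries, which may be technical.

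Histones H2A, H2B, H3 and H4 form the protein core around which DNA is wound, and H1 binds the DNA between cores. The replication-dependent genes are switched on when a cell copies its DNA, and together they supply most of the histone for the new chromatin. Their mRNAs are unusual in ending in a short hairpin, the stem-loop, in place of a poly(A) tail, and libraries made from total RNA can hold them. In T cells as in other cells they are known as genes of dividing cells. Bulk libraries cannot tell fewer cells in S phase apart from less histone mRNA per cell.

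The stem-loop is the feature that sets these mRNAs apart, so it is shown first for 1 member of each class. A hairpin of a 6-base stem and a 4-base loop (TTTN) was searched on the transcript strand of the GENCODE M21 models (build GRCm38). The first stem arm was either GGCTCT, the more frequent form here, or, with one letter changed, GGCCCT. The hairpin was found in 42 of the 68 members and in 46 of all 55341 genes with a transcript (0.0831%). The stem-loops below, read 5′ to 3′ with 5 bases on either side, have the stem and loop in capitals.
Hist1h1c: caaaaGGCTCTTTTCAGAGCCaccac
Hist1h2ab: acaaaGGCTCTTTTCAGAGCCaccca
Hist1h2bb: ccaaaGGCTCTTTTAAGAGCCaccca
Hist1h3b: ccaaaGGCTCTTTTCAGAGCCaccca
Hist1h4d: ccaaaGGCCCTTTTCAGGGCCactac

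The stem differed by class. All 9 H4 stem-loops used GGCCCT, and the 33 of the other classes (4 H1, 11 H2A, 10 H2B and 8 H3) used GGCTCT. The remaining 26 members had no such match in their model, which says only that these letters are not in it. Of the 42 models with a stem-loop, 17 ran on for over 200 bases past it, and some replication-dependent genes are known to give polyadenylated mRNAs that end downstream.

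Promoters are shown because the members moved together. RefSeq promoter entries (build GRCm38.p6) matched 61 of the 68 members. The 150 bases before the start site of 1 gene from each class and of Hist2h2bb, the member with the most counts, are given 5′ to 3′ on the gene's strand. Capitals mark matches, on either strand, to the 9 motifs named in the next paragraph, each spelled out there. The loose octamer and the H4 element among them were added after the sequences had been seen, and the loose octamer includes the strict one.
Hist1h1b (chr13:21780626-21780775, minus strand): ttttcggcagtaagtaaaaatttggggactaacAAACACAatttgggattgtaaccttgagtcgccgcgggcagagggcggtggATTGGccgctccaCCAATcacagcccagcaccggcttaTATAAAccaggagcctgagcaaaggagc
Hist1h2ab (chr13:23750938-23751087, plus strand): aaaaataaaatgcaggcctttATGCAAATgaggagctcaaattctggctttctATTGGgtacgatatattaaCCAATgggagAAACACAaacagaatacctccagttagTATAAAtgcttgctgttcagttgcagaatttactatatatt
Hist1h2bb (chr13:23746584-23746733, plus strand): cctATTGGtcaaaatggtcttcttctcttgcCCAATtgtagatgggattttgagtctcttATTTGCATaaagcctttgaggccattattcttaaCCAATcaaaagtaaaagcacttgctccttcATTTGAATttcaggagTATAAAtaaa
Hist2h2bb (chr3:96269550-96269699, plus strand): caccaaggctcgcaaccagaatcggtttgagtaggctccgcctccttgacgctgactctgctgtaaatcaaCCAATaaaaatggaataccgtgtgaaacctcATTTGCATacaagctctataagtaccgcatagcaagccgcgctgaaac
Hist1h3b (chr13:23752195-23752344, plus strand): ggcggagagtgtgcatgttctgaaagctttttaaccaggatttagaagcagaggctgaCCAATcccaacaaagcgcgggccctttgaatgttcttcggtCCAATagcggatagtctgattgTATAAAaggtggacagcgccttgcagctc
Hist1h4d (chr13:23581418-23581567, plus strand): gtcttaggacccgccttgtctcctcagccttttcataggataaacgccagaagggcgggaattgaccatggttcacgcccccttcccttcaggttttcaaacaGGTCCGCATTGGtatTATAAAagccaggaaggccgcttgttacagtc

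Over windows from 250 bases before to 50 after the start site, CCAAT, the letters known to be bound by the factor NF-Y, was present in 52 of 61 histone promoters (85.2%) and in 37.9% of all 27025 promoters. It was found in all 6 H1, all 17 H2A, all 16 H2B and all 10 H3 windows, but in 3 of 12 for H4. TATAAA, the TATA box, was present in 35 of 61 (57.4%), against 14.2% of all promoters. The other motifs differed by class. ATTTGNAT, a loose form of the octamer known to be bound by the factor Oct1, was found in 11 of 17 H2A and 13 of 16 H2B windows, against 4.41% of all promoters, and in none of H1, H3 or H4. The strict octamer ATTTGCAT was found in 7 of 17 H2A and 6 of 16 H2B windows, against 1.75%. AAACACA, known from H1 promoters, was found in 5 of 6 H1, 2 of 17 H2A and 2 of 16 H2B windows, against 7.14% of all promoters. GGTCCGC, part of the element near H4 start sites known to be bound by Hinfp, was found in 9 of 12 H4, 1 of 10 H3 and 1 of 16 H2B windows, against 3.22%. Of the E2F-type motifs, TTTCGCGC was found in 5 H2A and 4 H2B windows, against 0.318% of all promoters. Its relative TTTCCCGC was found in 1 H4 window, against 1.11%. The form TTTGGCGC was found in none, against 0.537%. These counts are of windows that are partly shared. Of 14 neighbouring member pairs transcribed away from each other, with 172 to 659 bases between their starts, 13 joined an H2A and an H2B gene. A match describes the letters only.

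Library totals in genes were 2220691 to 20771456 counts, and the Mdr1+ library of replicate 3 was the shallowest. There a floor of 3 counts stood at 1.41 CPM (TMM-scaled CPM, the counts set relative to the library's size), against 0.140 to 0.509 CPM in the other 5. The 7 T cell markers in the table (Cd3d, Cd3e, Cd3g, Cd4, Cd2, Lck and Cd247) summed to 2989 to 3440 CPM in Mdr1- and 3000 to 3829 CPM in Mdr1+ libraries, and none of the 7 passed the edgeR test, with or without the replicate block. The 8 dendritic cell markers summed to 63.6 to 93.4 CPM in Mdr1- and 24.4 to 53.3 CPM in Mdr1+ libraries, so they were lower where histone genes were lower (of 5 tested, none passed the edgeR test and 2 were lower with the block). The 8 myeloid markers summed to 85.4 CPM in the Mdr1- library of replicate 3 and to 0.654 to 6.13 CPM in the other 5. The 6 B cell markers went the other way, with 6.59 to 11.07 CPM in Mdr1- and 11.13 to 22.8 CPM in Mdr1+ libraries. The 6 stromal and endothelial markers summed to 126 to 137 and 117 to 192 CPM. Most of this was Pecam1, with 115 to 128 CPM in Mdr1- and 115 to 190 CPM in Mdr1+ libraries (log2 fold change 0.19). Among the others, Acta2, a smooth muscle actin, was lower in Mdr1+ (4.35, 6.40 and 4.08 against 0, 0.280 and 0 CPM, adjusted p = 0.018). Cdh5, an endothelial cadherin, was lower without overlap (adjusted p = 0.116). Col1a2, which had too few counts to test, was higher without overlap, at 0 to 0.112 against 0.140 to 0.472 CPM. Col1a1 and Pdgfrb overlapped. The 5 epithelial markers, of which Krt8 and Krt19 were at 0 in all libraries, summed to 7.48 to 9.51 and 13.6 to 22.2 CPM. Of these, Cdh1, an epithelial cadherin, was higher in Mdr1+ (adjusted p = 0.0382). Krt18 went the other way, lower in Mdr1+ within all 3 replicate numbers, but the fractions overlapped (log2 fold change -1.27, adjusted p = 0.454). Epcam overlapped too (log2 fold change 1.25, adjusted p = 0.63). Cd74, H2-Aa, Zbtb46, Ccl22, Pecam1, Acta2, Cdh5, Col1a2, Cdh1, Epcam and Krt18 were named after their values had been seen. The part of these cell types in the results below was not tested.

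Mdr1+ cells had less histone mRNA than Mdr1- cells, and the difference ran through all 5 classes. All 68 genes together summed to 2298, 4868 and 3259 CPM in the Mdr1- libraries of replicates 1, 2 and 3, and to 676, 792 and 688 CPM in the Mdr1+ libraries. The groups did not overlap, and the lowest Mdr1- library stood above the highest Mdr1+ library. The summed level was 4.84-fold lower in Mdr1+ as a ratio of means, and 3.40-, 6.15- and 4.74-fold lower within replicates 1, 2 and 3. As a share of all counts in genes, histone genes took 0.222%, 0.535% and 0.327% in Mdr1- and 0.0639%, 0.0815% and 0.0657% in Mdr1+ libraries. The spread lay mostly in the Mdr1- fraction, whose sum was 3475 CPM ± 1298 (SD, n = 3), against 718 CPM ± 63.8 (SD, n = 3) in Mdr1+.

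**Figure D1:**
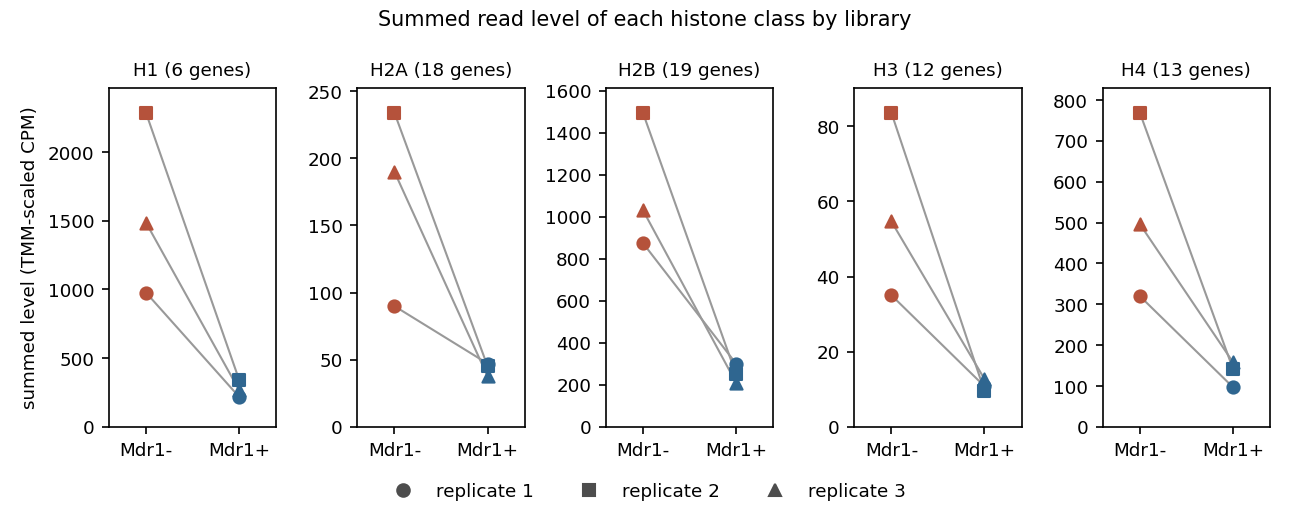
Summed TMM-scaled CPM of all genes of each class (y axis, linear from 0, a separate scale for each class) in the 3 Mdr1- (red) and 3 Mdr1+ (blue) libraries, with lines joining libraries of the same replicate number. In all 5 classes each Mdr1- library lies above each Mdr1+ library, replicate 2 is the highest Mdr1- library and replicate 1 the lowest.

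Summed by class, the level was 5.72-fold lower in Mdr1+ for H1, 3.95-fold for H2A, 4.46-fold for H2B, 5.24-fold for H3 and 3.99-fold for H4. The smallest ratio within a replicate number was 1.91-fold for H2A in replicate 1, and the largest was 8.77-fold for H3 in replicate 2. The make-up of the histone counts was also set side by side. H1 made up 42.5% to 47.0% of histone counts in Mdr1- and 32.4% to 43.4% in Mdr1+ libraries, and H2B 30.7% to 38.1% and 30.7% to 44.6%. H4 held 13.9% to 15.8% and 14.4% to 23.0%, H2A 3.92% to 5.83% and 5.49% to 6.98%, and H3 1.53% to 1.72% and 1.20% to 1.85%. These shares overlapped between the fractions for all 5 classes (two-sided exact permutation p = 0.2 to 0.8, where 3 against 3 libraries can give no p below 0.1), which does not show that they are alike. Within replicate numbers the H1 share was lower in Mdr1+ in 3 of 3, from 42.5% to 32.4%, 47.0% to 43.4% and 45.6% to 39.0%. The H4 share was higher in 3 of 3, from 13.9% to 14.4%, 15.8% to 17.9% and 15.2% to 23.0%. The shares of H2A, H2B and H3 changed direction between replicate numbers. All 5 shares are parts of the same whole and so depend on each other.

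The test of single genes covered 49 of the 68 members. Of the others, 9 had no count in any library and 10 had too few to test, with 370 counts in all in the Mdr1- and 86 in the Mdr1+ libraries. Of the 49, 46 reached the filter's level of 1.28 CPM in all Mdr1- libraries and 20 in all Mdr1+ libraries, so many were tested through the fraction where they were high. With that limit, 23 of the 49 fell in Mdr1+ and none rose (edgeR quasi-likelihood test, Benjamini-Hochberg adjusted p under 0.05). Over all 10897 genes tested, 212 were lower (1.95%) and 30 higher (0.275%). With the replicate number as a block, 39 fell, against 6.57% of all genes lower and 5.81% higher, and all 23 were among them. By DESeq2, 36 fell, against 3.5% lower over all genes. No histone gene was higher at an unadjusted p under 0.05 in any of the 3. In 41 of the 49 the fractions did not overlap, against 11.0% of all genes lower and 8.71% higher without overlap, and 46 were lower within all 3 replicate numbers, against 24.6%. For a single gene of this kind the two-sided exact permutation p was 0.1, the smallest that 3 against 3 libraries can give. The median log2 fold change of the 49 was -2.60 (range -3.83 to 0.28), against 0.04 over all genes tested. Among the 11 members with an average log2 CPM of 5 or more, 10 fell.

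The count depended on single libraries. Leaving out Mdr1+ replicate 1, 2 or 3 gave 10, 11 or 13 genes that fell, and leaving out Mdr1- replicate 1, 2 or 3 gave 28, 12 or 8. Leaving out both libraries of replicate 1 or 2 left 13 or 6. Without both of replicate 3 no histone gene and none of 11177 genes passed edgeR's test. There 45 of 50 histone genes were lower at an unadjusted p under 0.05, against 667 of the 11177. The median log2 fold change stayed between -2.94 and -2.17 in these 9 fits.

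**Figure D2:**
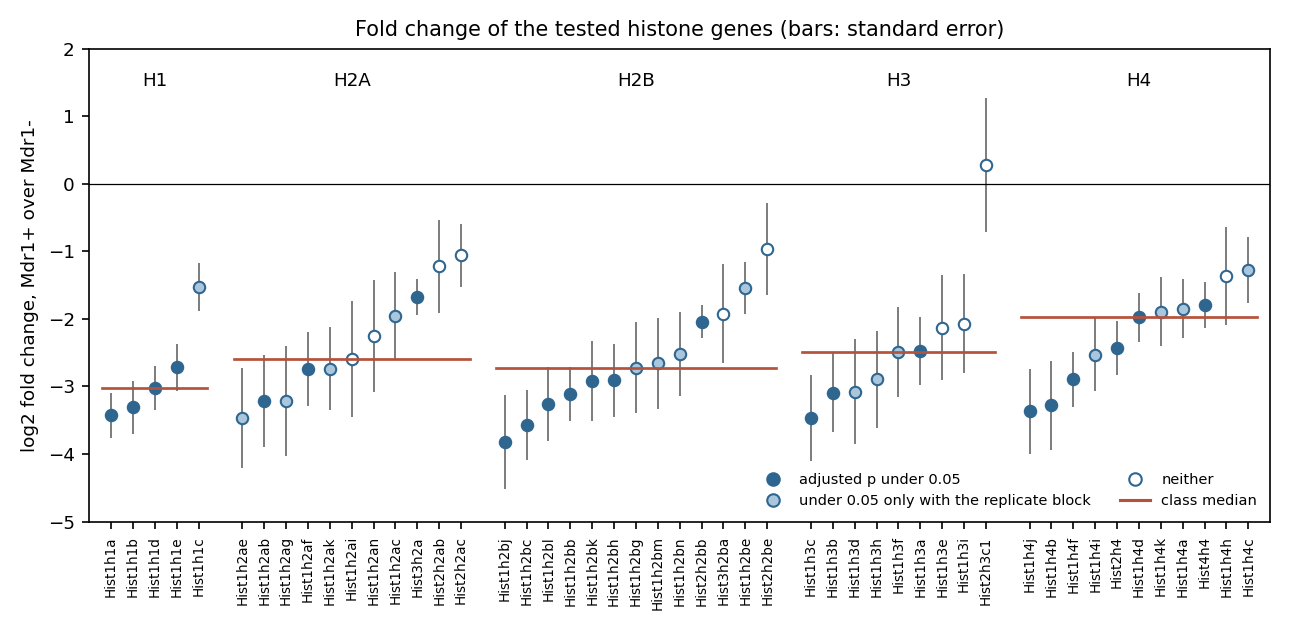
Log2 fold change of Mdr1+ over Mdr1- (y axis) with its standard error for each of the 49 tested histone genes (x axis), by class and in order of fold change, with the class median as a red line. Dark points passed an adjusted p of 0.05 in the edgeR test, pale points passed only with the replicate block, and open points passed neither. Hist2h3c1 is the one gene above 0 (-0.10 with the block), and Hist1h1c stands above the other H1 genes.

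Of 5 linker histone genes tested, 4 fell (5 with the block), and the median log2 fold change was -3.02. Hist1h1t, the testis subtype, had no count in any library. The others are the somatic subtypes, whose proteins bind linker DNA and help fold chromatin. Hist1h1a had 226, 421 and 262 CPM in the Mdr1- libraries of replicates 1, 2 and 3 and 35.1, 30.8 and 16.5 CPM in the Mdr1+ libraries. Its lowest Mdr1- value was far above its highest Mdr1+ value. It fell by 3.43 ± 0.33 in log2 units (± SE, adjusted p = 0.00366). Hist1h1b had 224, 538 and 324 CPM against 25.8, 31.8 and 54.7 CPM. Again no Mdr1+ library reached a Mdr1- library, and it fell by 3.31 ± 0.39 (adjusted p = 0.00434). Hist1h1d, with 156, 377 and 241 CPM against 25.3, 35.1 and 35.4 CPM, fell by 3.02 ± 0.33 (adjusted p = 0.00379). Hist1h1e fell by 2.72 ± 0.35. Without both libraries of replicate 3, none of these passed, and Hist1h1a, Hist1h1b and Hist1h1d passed in every other fit.

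Hist1h1c was the H1 gene with the smallest change. It had 235, 582 and 426 CPM in Mdr1- and 103, 204 and 121 CPM in Mdr1+ libraries. The fractions did not overlap, but the gap was narrow, with 204 CPM in Mdr1+ replicate 2 beside 235 CPM in Mdr1- replicate 1. Its log2 fold change was -1.53 ± 0.36 (adjusted p = 0.0736), and with the block -1.49 ± 0.12 (adjusted p = 0.000226, within a range of 0.000226 to 0.593 over all alternatives). Hist1h1c therefore made up more of the H1 counts in Mdr1+ cells. Its share was 24.1%, 25.4% and 28.6% in the Mdr1- libraries of replicates 1, 2 and 3 and 47.1%, 59.3% and 45.2% in the Mdr1+ libraries. The 95% Wilson intervals, which cover counting error only, were 23.2% to 25.0% in Mdr1- replicate 1 and 41.2% to 49.4% in Mdr1+ replicate 3, the shallowest. The fractions did not overlap (two-sided exact permutation p = 0.1, the smallest possible), and the share was higher in 3 of 3 replicate numbers. Hist1h1a, Hist1h1b and Hist1h1d held smaller shares in all Mdr1+ than in all Mdr1- libraries, while the shares of Hist1h1e overlapped. Without Hist1h1c, the summed H1 level was 6.41-, 12.2- and 7.23-fold lower in Mdr1+ within replicates 1, 2 and 3.

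**Figure D3:**
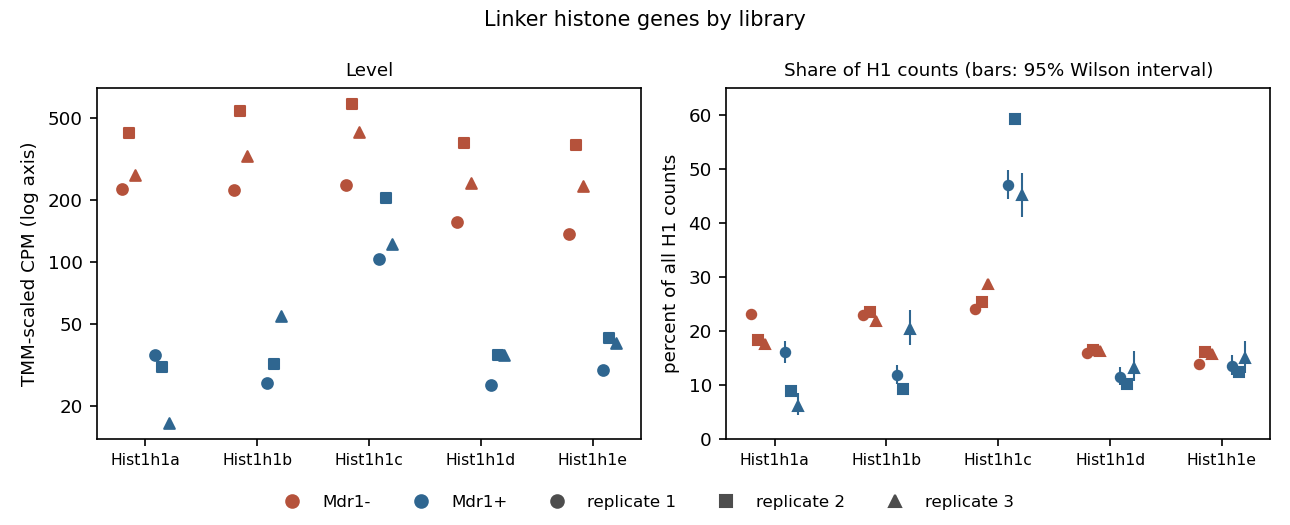
Left, TMM-scaled CPM of the 5 detected H1 genes (log axis) in each library. Right, each gene's percent of all H1 counts with its 95% Wilson interval, red for Mdr1- and blue for Mdr1+. All 5 genes are lower in Mdr1+, and the share of Hist1h1c is 24.1% to 28.6% in Mdr1- and 45.2% to 59.3% in Mdr1+.

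H2A genes encode a core histone that pairs with H2B. Of 18, 11 were tested, 3 fell (7 with the block) and the median log2 fold change was -2.60. Hist3h2a, from the small cluster on chromosome 11, held 50.5% of all H2A counts. It had 55.1, 107 and 83.2 CPM in Mdr1- and 28.4, 27.0 and 20.3 CPM in Mdr1+ libraries. The fractions did not overlap, and it fell by 1.68 ± 0.27 in log2 units (adjusted p = 0.0152). Hist1h2ab, whose stem-loop and promoter are printed above, had 5.47, 35.0 and 29.7 CPM against 3.16, 2.66 and 0.943 CPM. Mdr1- replicate 1 stood close to the Mdr1+ libraries, and the gene fell by 3.22 ± 0.68 (adjusted p = 0.0484). Hist1h2af had 4.13, 9.77 and 5.77 CPM against 0.997, 1.12 and 0.472 CPM and fell by 2.75 ± 0.55 (adjusted p = 0.0379). Only 6.0% of the 50-base stretches of its model are in no other gene, so its counts are uncertain, as for the 12 members under 10%. In Mdr1+ replicate 3, Hist1h2ab and Hist1h2af were both under the floor of 1.41 CPM.

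Hist2h2ac was one of the H2A genes that passed neither fit. It had 5.58, 18.7 and 17.1 CPM against 5.98, 6.26 and 8.02 CPM, and its log2 fold change was -1.06 ± 0.46 (adjusted p = 0.414). Mdr1- replicate 1 lay below all 3 Mdr1+ libraries, so the fractions overlapped. In H2A the Mdr1- library of replicate 1 was the low one as a whole, with a summed 90.0 CPM against 234 and 190 CPM in replicates 2 and 3, and the Mdr1+ libraries summed to 47.2, 45.2 and 37.7 CPM. In place of 3, leaving out Mdr1+ replicate 1, 2 or 3 gave 1, 1 or 0 H2A genes that fell, and leaving out Mdr1- replicate 2 or 3 gave 1 or 0. In the 2 fits with 0 calls in edgeR, 10 of 12 and 7 of 11 tested H2A genes were lower at an unadjusted p under 0.05. Over all genes these were 851 of 11277 and 603 of 11218.

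H2B genes encode the partner of H2A. Of 19, 13 were tested, 7 fell (11 with the block) and the median log2 fold change was -2.72. Hist2h2bb had 749, 1155 and 783 CPM in Mdr1- and 262, 216 and 175 CPM in Mdr1+ libraries. All 3 Mdr1- libraries were well above the Mdr1+ libraries, and it fell by 2.04 ± 0.24 in log2 units (adjusted p = 0.00434). It alone held 80.4% of H2B counts and 26.4% of all histone counts. Every 50-base stretch of its GENCODE model also lies in Gm42743, a long noncoding RNA gene on the same strand, so its 31238 counts may not all be H2B mRNA. Without Hist2h2bb the summed H2B level was 3.19-, 9.66- and 7.02-fold lower in Mdr1+ within replicates 1, 2 and 3.

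In the large cluster, Hist1h2bb had 47.9, 130 and 98.5 CPM in Mdr1- and 11.5, 12.7 and 6.13 CPM in Mdr1+ libraries, and fell by 3.11 ± 0.40 (adjusted p = 0.0058). Its Mdr1- values were each over the highest Mdr1+ value. Hist1h2bc had 8.82, 19.4 and 22.8 CPM against 1.99, 1.36 and 0.472 CPM and fell by 3.57 ± 0.52 (adjusted p = 0.0095). Hist1h2bj showed the largest fall of the 49, by 3.83 ± 0.70 (adjusted p = 0.0254), from 3.57, 9.17 and 9.68 CPM to 0.831, 0.467 and 0 CPM. The last value is a count of 0, where the floor was 1.41 CPM. Hist1h2bl had 4.24, 10.7 and 8.49 CPM against 0.831, 0.888 and 0.472 CPM and fell by 3.26 ± 0.55 (adjusted p = 0.0191). The Mdr1+ replicate 3 values of Hist1h2bc and Hist1h2bl were under that floor too. In Hist1h2bb, Hist1h2bc, Hist1h2bj and Hist1h2bl the fractions did not overlap. Hist1h2be, with 11.2, 27.3 and 21.1 CPM against 7.31, 5.61 and 8.02 CPM, had a change of -1.55 ± 0.38 in log2 units (adjusted p = 0.0948), and passed with the block (adjusted p = 0.024, within a range of 0.0074 to 0.537 over all alternatives). In place of 7, leaving out Mdr1+ replicate 1, Mdr1+ replicate 2 or Mdr1- replicate 2 gave 3 H2B genes that fell, and leaving out Mdr1- replicate 3 gave 2.

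H3 genes encode the core histone whose tail carries many of the known chromatin marks. Of 12, 9 were tested, 3 fell (6 with the block) and the median log2 fold change was -2.49. The class had few counts, 35.1, 83.6 and 54.7 CPM in all in Mdr1- and 10.8, 9.53 and 12.7 CPM in Mdr1+ libraries. Hist1h3b had 7.59, 17.1 and 15.6 CPM in Mdr1- and 0.831, 1.26 and 3.77 CPM in Mdr1+ libraries, and fell by 3.09 ± 0.59 (adjusted p = 0.0302). Hist1h3a had 6.81, 12.8 and 9.0 CPM against 2.33, 1.78 and 0.472 CPM and fell by 2.47 ± 0.50 (adjusted p = 0.0409). Hist1h3c had 4.80, 12.3 and 4.92 CPM against 0.332, 0.888 and 0.472 CPM and fell by 3.47 ± 0.64 (adjusted p = 0.0264). In these 3 genes all Mdr1- libraries were above all Mdr1+ libraries. The Mdr1+ replicate 3 values of Hist1h3a and Hist1h3c were under the floor of 1.41 CPM. Hist1h3c was also under the floor of 0.498 CPM in Mdr1+ replicate 1.

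Hist2h3c1 was the one tested member with a positive log2 fold change, 0.28 ± 0.99 (adjusted p = 0.949). It had 2.46, 1.04 and 2.21 CPM in Mdr1- and 2.16, 0.280 and 6.13 CPM in Mdr1+ libraries. The fractions overlapped, and the high value was that of the shallowest library. The Hist2h3c1 log2 fold change turned negative with the block (-0.10) and without Mdr1+ replicate 3 (-0.91). No 50-base stretch of its model is its own, so its counts are uncertain. In place of 3, leaving out Mdr1+ replicate 1, 2 or 3 gave 0, 0 or 1 H3 genes that fell, and leaving out Mdr1- replicate 2 or 3 gave 0. In those 4 fits with 0 calls in edgeR, 8 of 11, 8 of 10, 6 of 9 and 8 of 9 tested H3 genes were lower at an unadjusted p under 0.05. Over all genes these were 808 of 11306, 898 of 10884, 618 of 10853 and 603 of 11218.

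H4 genes encode the partner of H3. Of 13, 11 were tested, 6 fell (10 with the block) and the median log2 fold change was -1.97. Hist4h4, the one member on chromosome 6, held 32.5% of H4 counts. It had 108, 247 and 134 CPM in Mdr1- and 32.6, 52.9 and 56.6 CPM in Mdr1+ libraries, and fell by 1.79 ± 0.34 in log2 units (adjusted p = 0.0286). Hist1h4d had 55.7, 151 and 106 CPM against 18.8, 31.0 and 30.2 CPM and fell by 1.97 ± 0.36 (adjusted p = 0.0264). The fractions did not overlap in either gene. Hist2h4, with 86.4, 161 and 84.1 CPM against 20.3, 28.9 and 8.96 CPM, fell by 2.43 ± 0.40 (adjusted p = 0.0167).

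The H4 genes with the largest falls had fewer counts. Hist1h4f had 18.8, 50.5 and 36.5 CPM in Mdr1- and 3.82, 5.66 and 4.24 CPM in Mdr1+ libraries, and fell by 2.90 ± 0.40 (adjusted p = 0.00787). Hist1h4b had 4.13, 22.0 and 17.1 CPM against 1.33, 1.26 and 2.36 CPM and fell by 3.28 ± 0.66 (adjusted p = 0.0389). Hist1h4j had 3.13, 10.1 and 7.13 CPM against 0.665, 0.561 and 0.943 CPM and fell by 3.36 ± 0.63 (adjusted p = 0.0283). The Mdr1- library of replicate 1 was the lowest of its fraction in all 3, and still above the Mdr1+ libraries. The Mdr1+ replicate 3 value of Hist1h4j was under the floor of 1.41 CPM. In place of 6, leaving out any 1 of the Mdr1+ libraries, or Mdr1- replicate 3, gave 2 H4 genes that fell.

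By position the members fell into 4 groups, named in the gene symbols. Of the 54 Hist1 genes, on chromosome 13, 40 were tested, 19 fell (35 with the block) and the median log2 fold change was -2.74. Of the 10 Hist2 genes, on chromosome 3, 6 were tested and 2 fell in both fits, Hist2h2bb and Hist2h4. The other 4, Hist2h2ab, Hist2h2ac, Hist2h2be and Hist2h3c1, passed in neither fit and had log2 fold changes of -1.22, -1.06, -0.97 and 0.28. The Hist2 median was -1.14, and its difference from Hist1 was not tested. Of the neighbours transcribed away from each other, 7 pairs had both genes tested, and both had negative log2 fold changes in all 7. So had 48 of the 49 tested members, against 45.8% of all genes, so any pairs of members would mostly show the same. Hist1h2ag and Hist1h2bj, one such pair, had -3.21 and -3.83, and Hist2h2ac and Hist2h2be, another, had -1.06 and -0.97.

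The members were also described by the end of their model. Tested members with a stem-loop in their model had a median log2 fold change of -2.53 (31 genes, 15 fell), and those with no match had -2.67 (18 genes, 8 fell). Among the former, the 16 tested genes whose model runs over 200 bases past the stem-loop had a median of -2.05 (7 fell). The 15 whose model ends within 200 bases had -2.92 (8 fell). Hist1h1c, Hist1h1d, Hist3h2a, Hist4h4 and Hist1h4d belong to the first of these, and Hist1h2ab, Hist1h2bb, Hist1h3b and Hist2h2ac to the second. The log2 fold changes overlapped, from -3.08 to 0.28 in the first and from -3.83 to -1.06 in the second. Hist1h1d had -3.02 and Hist2h2ac -1.06, each against the difference in medians. This split was made after the values had been seen and carries no test.

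Of 32 tested genes that make and process histone mRNA, 2 fell (6 with the block) and 1 rose with the block. Over all genes, 1.95% were lower (6.57% with the block) and 5.81% were higher with the block. The median log2 fold change of the 32 was -0.29. The 2 that fell without the block act at the entry to S phase. Cdc25a, a phosphatase that activates Cdk2, had 49.4, 65.2 and 64.5 CPM in Mdr1- and 28.4, 32.9 and 23.1 CPM in Mdr1+ libraries and fell by 1.06 ± 0.21 (adjusted p = 0.0364). Cdk2, the kinase that switches on histone transcription, had 90.1, 79.9 and 96.4 CPM against 52.0, 35.8 and 48.1 CPM and fell by 0.98 ± 0.20 (adjusted p = 0.0389). The fractions did not overlap in either. Zcchc11, a uridyl transferase that acts on histone mRNA in its decay, was the one that rose with the block, and its log2 fold change without the block was 0.53. Cpsf3, the nuclease that cuts histone pre-mRNA, had 64.2, 74.4 and 61.8 CPM against 59.8, 75.8 and 62.7 CPM, and a change of -0.01 ± 0.18 in log2 units (adjusted p = 0.989). Upf1, a helicase in histone mRNA decay, had 0.04 ± 0.16 (adjusted p = 0.955). The fractions overlapped in both.

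Of 26 tested histone chaperone and assembly genes, 3 fell (11 with the block), against 1.95% of all genes lower (6.57% with the block). The median log2 fold change was -0.27. Asf1b, which carries newly made H3 and H4, had 52.0, 88.2 and 70.0 CPM in Mdr1- and 15.6, 14.0 and 7.55 CPM in Mdr1+ libraries and fell by 2.44 ± 0.30 (adjusted p = 0.00521). Chaf1a, a subunit of the CAF-1 complex that loads them onto copied DNA, had 52.1, 82.1 and 82.7 CPM against 17.4, 15.2 and 19.8 CPM and fell by 2.07 ± 0.24 (adjusted p = 0.00434). Both had fractions that did not overlap. Anp32e, which removes the variant H2A.Z, had 146, 144 and 155 CPM against 89.4, 71.9 and 88.2 CPM and fell by 0.84 ± 0.16 (adjusted p = 0.0306). Hira, which loads the replication-independent H3.3, had 0.04 ± 0.19 on the log2 scale (adjusted p = 0.961), and Cdan1 -0.03 ± 0.15 (adjusted p = 0.966), and in both the fractions overlapped.

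The replication-independent variants are made outside S phase too, mostly from mRNAs with poly(A) tails, and had a median log2 fold change of -0.28 (9 genes tested). One fell, Cenpa, the H3 variant of centromeres, with 87.8, 121 and 101 CPM in Mdr1- and 56.3, 35.4 and 44.8 CPM in Mdr1+ libraries and a change of -1.19 ± 0.22 in log2 units (adjusted p = 0.0283). With the block H2afx and H1f0 fell too, with log2 fold changes of -1.30 ± 0.35 and -1.10 ± 0.28 in the fit without it. Over all genes, 1.95% were lower without the block and 6.57% with it. H3f3b, which encodes H3.3, had 234, 164 and 200 CPM in Mdr1- and 277, 208 and 225 CPM in Mdr1+ libraries. Its fractions overlapped, with 0.25 ± 0.19 in log2 units (adjusted p = 0.694). H2afz, which encodes H2A.Z, had 28.7, 15.7 and 27.5 CPM against 27.9, 18.2 and 26.4 CPM (log2 fold change 0.00 ± 0.30, adjusted p = 0.998), and H2afj had 0.14 ± 0.35 (adjusted p = 0.918). H2afx, H1f0 and H3f3b were named after their values had been seen, and the difference between variants and the replication-dependent genes was not tested.

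Genes of DNA replication fell beside the histone genes. Of 34 tested, 22 fell (28 with the block) and none rose, against 1.95% of all genes lower (6.57% with the block). The median log2 fold change was -1.38. Mcm10, a factor of the replication fork, had 37.1, 68.0 and 47.9 CPM in Mdr1- and 7.64, 4.77 and 3.30 CPM in Mdr1+ libraries and fell by 3.23 ± 0.35 (adjusted p = 0.00379). Tk1, thymidine kinase, fell by 3.02 ± 0.49 (adjusted p = 0.0158), Cdc6, which loads the helicase at origins, by 2.93 ± 0.26 (adjusted p = 0.00271), and Rrm2, a subunit of ribonucleotide reductase, by 2.91 ± 0.26 (adjusted p = 0.00271). In these 4 the fractions did not overlap. Cdt1, the partner of Cdc6 in origin licensing, had 107, 122 and 88.1 CPM against 85.7, 99.2 and 116 CPM (log2 fold change -0.08 ± 0.19, adjusted p = 0.915). Rpa2, which binds single-stranded DNA, had -0.07 ± 0.20 (adjusted p = 0.929), and both overlapped.

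Genes of G2 and mitosis fell as well. All 18 were tested and 16 fell (18 with the block), against 1.95% of all genes lower (6.57% with the block). The median log2 fold change was -2.65, beside -2.60 for the 49 histone genes. Ccnb1, a mitotic cyclin, had 4.58, 8.47 and 7.81 CPM in Mdr1- and 1.16, 0.280 and 0 CPM in Mdr1+ libraries and fell by 3.74 ± 0.74 (adjusted p = 0.0354). Its 0 is from Mdr1+ replicate 3, where the floor was 1.41 CPM. Ccna2, the cyclin of S phase and G2, had 119, 191 and 171 CPM against 19.3, 14.2 and 18.4 CPM and fell by 3.23 ± 0.24 (adjusted p = 0.00271). Ube2c, which serves the degradation of mitotic cyclins, fell by 3.28 ± 0.42 (adjusted p = 0.0058), and Bub1, a spindle checkpoint kinase, by 3.10 ± 0.34 (adjusted p = 0.00379). Aurka, a spindle kinase, and Cdc20, an activator of mitotic exit, passed with the block only, with log2 fold changes of -1.47 ± 0.40 (adjusted p = 0.139) and -1.51 ± 0.37 (adjusted p = 0.0908) without it. The fractions did not overlap in any of the 18, against 11.0% of all genes lower without overlap.

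Within replicate numbers, the median log2 ratio of the 49 histone genes was -1.51, -3.05 and -2.11 for replicates 1, 2 and 3. That of the G2 and mitosis genes was -1.90, -3.26 and -2.49, with the same order of replicates. The replication genes had -1.15, -1.47 and -1.53, a smaller range. Over all genes tested the medians were 0.00, 0.09 and 0.02. The lists were compared side by side only, since all share the same libraries.

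**Figure D4:**
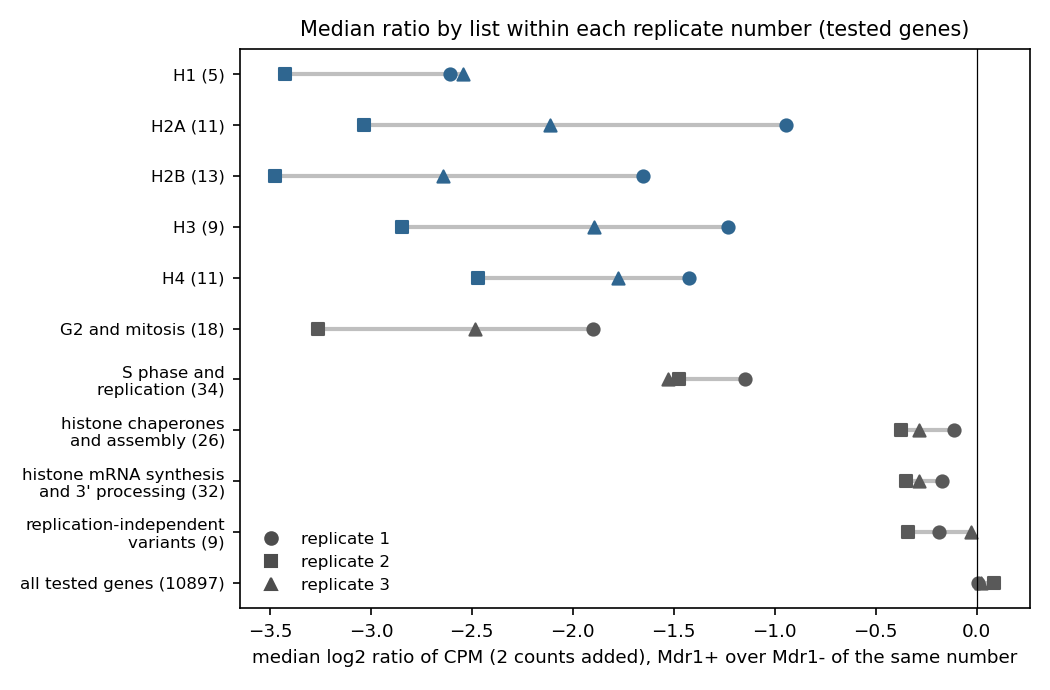
Median log2 ratio of Mdr1+ over Mdr1- CPM within each replicate number (x axis) for the tested genes of each histone class (blue) and of the other lists and all genes (grey), with the number of genes in brackets and a bar from the lowest to the highest replicate. All 5 histone classes lie between -3.47 and -0.95. The G2 and mitosis genes lie between -3.26 and -1.90, and the replication genes between -1.53 and -1.15. The lists of chaperones, mRNA processing and variants lie between -0.38 and -0.03.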

How the data were processed

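RNA from 6 libraries (3 Mdr1+, 3 Mdr1-) was prepared from 500 ng of total RNA with a stranded kit, per the labels. The authors deposited raw read counts per gene. The submitters' processing notes list TopHat, HTSeq and DESeq2 with mouse build mm9. Their versions, the annotation and the use of strand were "not given in the sources used here". The reference used for sequences is GRCm38, so no coordinates of the files are given. Unassigned-read rows stayed out of library sizes. Of all entries, 67.0% to 73.2% were reads with more than 1 position in the 4 libraries of replicates 1 and 2, and stayed out of the gene counts. Of the 9 members with no count, 6 have under 12% of their 50-base stretches in no other gene, so their 0 says nothing of their level.

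The counts of replicate 3 were deposited in case-insensitive name order beside names in case-sensitive order, and were moved accordingly (81.3% of rows, 1 row for each histone gene) before any fit. This departs from the plan to use the counts as deposited. Across histone genes, the Spearman correlation of replicate 3 with the other libraries was 0.237 to 0.471 as deposited and 0.770 to 0.977 after.

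Tests used edgeR 4.0.16 in R 4.3.3 (TMM, filterByExpr, robust quasi-likelihood F test, group as the only term) on all 10897 genes that passed the filter, with Benjamini-Hochberg adjustment over them and a threshold of 0.05. Fold changes are Mdr1+ over Mdr1-. On simulated counts, 88 of 100 genes changed by 2 on the log2 scale and 99 of 100 changed by 3 were recovered, with 5 false calls among 10761 genes. The changed genes were drawn from all genes with a mean over 2 CPM. Their spread followed the trend over all genes, without pairing. These rates therefore do not describe histone genes with few counts. Alternatives were DESeq2 1.42.0, RLE size factors, library totals, no filter, a stricter filter, a non-robust fit, the replicate block and leaving out libraries. Same-numbered libraries deviated from their group means together (correlation across genes 0.41, 0.57 and 0.21, each highest with its own number), so the numbers were taken as pairs, which the labels do not state.

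Members and lists were chosen with earlier results of these data known. Values per library are given, in each class, for the up to 3 tested genes with the most reads, the up to 3 called genes with the largest change, and any gene against its class median. In each further list they are the up to 4 called genes with the largest change and the 2 with the largest adjusted p, some by fold change only. CPM is not divided by gene length, so levels of different genes are not compared.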

Additional observations from a re-analysis of the deposited data

How the results depend on the processing

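No called result changed direction under any alternative. Of 767 values of named genes under the alternatives, 599 kept their side of the threshold, 153 lost the call and 15 gained it. With the replicate block, which fits the pairing, calls lower in Mdr1+ were 39 for all histone genes, 7 for H2A, 11 for H2B, 6 for H3, 10 for H4, 6 for mRNA synthesis and processing (1 higher), 11 for chaperones, 3 for variants, and 716 lower and 633 higher over all genes. With DESeq2 they were 36, 6 for H2A, 11 for H2B, 5 for H3, 6 for chaperones, 3 for variants, and 381 lower and 113 higher over all genes. With no filter they were 5 for H2A, 11 for H2B, 5 for H3 and 2 for variants, and 52 genes in all were higher. The block changed the other counts by less, to 5 for H1, 28 for S phase and 18 for G2 and mitosis.

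Leaving out 1 library or 1 replicate number gave 0 to 28 calls for all histone genes, 0 to 5 for H1, 0 to 4 for H2A, 0 to 9 for H2B, 0 to 2 for H3 and 0 to 8 for H4. It gave 0 to 1 for mRNA synthesis and processing, 0 to 2 for chaperones, 0 to 3 for variants, 0 to 21 for S phase, 0 to 16 for G2 and mitosis, and over all genes 0 to 196 lower and 0 to 15 higher. Leaving out both libraries of replicate 3 gave 0 in each of these, with 2 libraries a group and a smallest adjusted p of 0.172. The median log2 fold change ranged from -0.38 to -0.23 for mRNA synthesis and processing and from -0.47 to -0.18 for chaperones. Without the gene with the most reads, the ratio of summed means was 8.71-fold for H1 and 6.48-fold for H2B. The cause of these shifts was not tested. Depth limits the small members most, since 10 tested members had no count in at least 1 Mdr1+ library.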
